A study of Mus musculus with 214 samples.

Results

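The nuclear genes for the subunits of the 5 oxidative phosphorylation complexes were followed in mouse liver after early-life exposure to N-nitrosodimethylamine (NDMA), a methylating carcinogen that liver cells activate. Members were all genes whose symbols begin with Ndufa, Ndufb, Ndufc, Ndufs or Ndufv and a digit, Sdha to Sdhd, and those that begin with Uqcr, Cox4 to Cox8, or Atp5, without assembly factors. This gave 87 of 19900 genes, of which 85 were in the WT table and all 87 in the Mgmt-/- table. Complex I had 40 members, complex II 4, complex III 8, complex IV 18 and complex V 17, sorted by symbol, so Ndufa4, which is now placed in complex IV, stood under complex I. In each genotype 79 members had a mean of at least 5 over all libraries of its table, and the others were set aside as low. The low members were Atp5g2, Cox4i2, Cox6a2, Cox8b, Ndufa11b and Ndufa4l2 in both tables, and Cox7b2 and Cox8c in the Mgmt-/- table. Ndufs5 and Ndufs5-ps are near-identical copies, as Ndufb4 and Ndufb4c are related ones, and how their reads were divided was uncertain.

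Liver RNA was measured by 3′ digital gene expression, in which reads come from transcript ends, in C57BL6 mice that all carried the RaDR recombination reporter and the gpt mutation target (RaDR+/+;GPT+/+, here WT) or these and a deletion of Mgmt (RaDR+/+;GPT+/+;Mgmt-/-), the gene for the enzyme that removes methyl groups from O6-methylguanine. Males and females received intraperitoneal NDMA as infants, with a first dose of 3.5 mg/kg on postnatal day 8 followed by 7 mg/kg on day 15, or saline at the same ages. The liver was collected on day 1, 2 or 5, in week 10 or in month 10, counted from the second dose. In time order, the WT groups comprised 26, 8, 8, 8 and 13 NDMA libraries and 21, 8, 7, 8 and 10 saline libraries. The Mgmt-/- groups comprised 12, 8, 8, 8 and 13 NDMA libraries and 12, 7, 8, 8 and 12 saline libraries. Values are gene counts divided by the authors' size factor for each library, and each genotype was normalized apart. Whole reads could be recovered in 209 of 213 libraries, with 150038 to 4791649 reads in WT and 713584 to 7740710 in Mgmt-/- livers. Mgmt itself was between 13.0 and 130.0 (median 45.8) in WT libraries and between 0 and 9.67 (median 1.09) in Mgmt-/- libraries, each on its own table's scale.

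Oxidative phosphorylation takes electrons from NADH at complex I and from succinate at complex II, passes them through complex III to oxygen at complex IV, and uses the proton gradient so formed to make ATP at complex V. A small set of proteins holds the redox centers or catalytic sites, and many short accessory proteins surround them. Hepatocytes are rich in mitochondria and depend on this pathway for urea synthesis, gluconeogenesis and fat oxidation. Several complex IV subunits exist as tissue isoforms, with liver forms (Cox6a1, Cox6b1, Cox7a2, Cox8a), heart and muscle forms (Cox6a2, Cox7a1, Cox8b), a lung form (Cox4i2) and a testis form (Cox6b2). The symbol rule leaves out some nuclear subunits, such as Cyc1 of complex III and Ndufab1 of complex I. Further subunits are made inside the mitochondrion, and none of these 13 mitochondrially encoded genes was in either table.

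Some libraries stood apart from their group, and the main member counts are given with and without them. Other results, such as the core list, length classes and cell type markers, are with all libraries unless stated. Cdkn1a, a p53 target that encodes the cell cycle inhibitor p21, was used to check treatment labels, with no subunit gene in the check. At day 2 it was between 4.02 and 35.8 in 7 WT saline libraries and between 167 and 421 in the 8 NDMA libraries, but 212 in 1 library labelled saline. Further libraries labelled WT saline had 359 at day 1 and 109 at day 5, where the others reached 38.8 and 17.6, and 2 libraries labelled WT NDMA at day 1 had 30.3 and 16.3, where the others began at 61.8. These 5 libraries go against their treatment labels, and the last 2 also did not match their labelled sex. The check covered the 133 libraries of days 1 to 5, and labels at week 10 and month 10 were not checked in this way. At days 1 to 5 no Mgmt-/- library went against its treatment label, but 2 saline libraries at day 5 held kidney transcripts. In that saline group the summed hepatocyte markers ran down to 1602, against a median of 337879, and the summed kidney markers up to 24915. In addition, 4 WT NDMA libraries had under 300000 reads, a single one at every time but day 1, and these were all female and of 1 library batch.

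The 4 low-read libraries deviated in many genes, among them some subunit genes. Compared with the median of the other libraries of their group, 12 of 78 members were more than 1 log2 unit lower in all 4, and 6 were more than 1 unit higher. Atp5j, which encodes coupling factor 6 of ATP synthase, was listed at 116 in the day 2 library against 3303 to 6134 in the other 7, and at 107, 103 and 78.0 at the later times. Cox8a was listed at 137 at day 2 against 1110 to 1870 in the others. Atp5g1, a gene for the c-ring subunit, was in contrast 1199 against 243 to 697. The median difference was between -0.13 and -0.08 over the members and between -0.28 and -0.20 over the other genes. In each of these libraries 5.13% to 8.97% of members and 16.8% to 27.1% of other genes were more than 2 log2 units lower than in their group. A Mgmt-/- saline library at week 10 with 1442734 reads also stood apart, with a median member difference of -1.57. In it Atp5mpl, a small ATP synthase proteolipid, was 246 against 2206 to 3154 in the other 7 libraries, whereas Atp5b, the catalytic beta subunit, was 1275 against 642 to 779.

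In WT mice a number of subunit genes were higher after NDMA at days 2 and 5. At day 2, 22 of 79 members rose and 1 fell (limma, adjusted p under 0.05 and absolute log2 fold change over 0.58), where 3.33% of all genes tested rose and 2.91% fell. The median log2 fold change of the members was 0.42 against -0.08 over all genes, and 66 of 79 members were positive. The count of 23 was 21 by DESeq2 but 14 by edgeR, 14 with total reads as a term and 10 without the columns whose reads were not recovered, and all of these rose. At day 5, 14 rose and 1 fell, against 2.22% and 1.39% of all genes, with a median of 0.37 against -0.07. By DESeq2 13 rose and 2 fell at day 5, and by edgeR 7 rose and 3 fell. In limma 3 members were called with no covariates and 0 with total reads as a term. At day 1 a single member, Cox6b2, rose and none fell, against 5.01% and 4.19% of all genes, and the median was -0.01. Here 13 members had an unadjusted p under 0.05, an adjusted p under 0.05 went with a positive fold change in 3 members and a negative one in 4 (11% and 10.1% of all genes), and edgeR and DESeq2 likewise called Cox6b2 alone. In a bulk liver sample, fewer cells of a type and less RNA per cell cannot be told apart.

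Without the libraries that go against their labels, 26 members rose and 2 fell at day 2, against 4.69% and 4.43% of all genes, and 23 rose and 1 fell at day 5, against 3.95% and 2.66%. At day 1 it was again Cox6b2 alone, against 6.23% of genes that rose and 5.33% that fell. When the low-read libraries were left out as well, 32 rose and 1 fell at day 2, against 7.25% and 7.23%, and 34 rose and 2 fell at day 5, against 7.58% and 5.41%. The medians were then 0.51 and 0.50, against -0.02 and 0.01 over all genes. Males and females of these WT groups came from different batches, and effects of sex and of batch cannot be told apart. With all libraries, 37 members rose and none fell in males at day 2, against 5.28% and 4.22% of all genes, and at day 5 it was 43 up and 4 down, against 7.98% and 5.36%. In females alone limma called 0 members at both times, where it also called 0% of all genes, with 21 and 7 members at an unadjusted p under 0.05. With both the libraries against their label and the low-read libraries out, 31 members rose and 4 fell in females at day 2, against 6.23% and 6.94% of all genes, and 1 rose at day 5, against 0.952% and 0.321%. With only the library against its label out, 1 member rose in females at each time. The day 5 count of 15 with all libraries was unstable: it was 24 without saline D215012, the library against its label, 2 without saline D202009 or D202010, and 4 to 6 without any 1 of saline D215009, D215010 and D215011 or NDMA D202012, D202013, D202014, D202015 and D215015. Once the library against its label was out, leaving out 1 more gave 14 to 36.

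**Figure D1:**
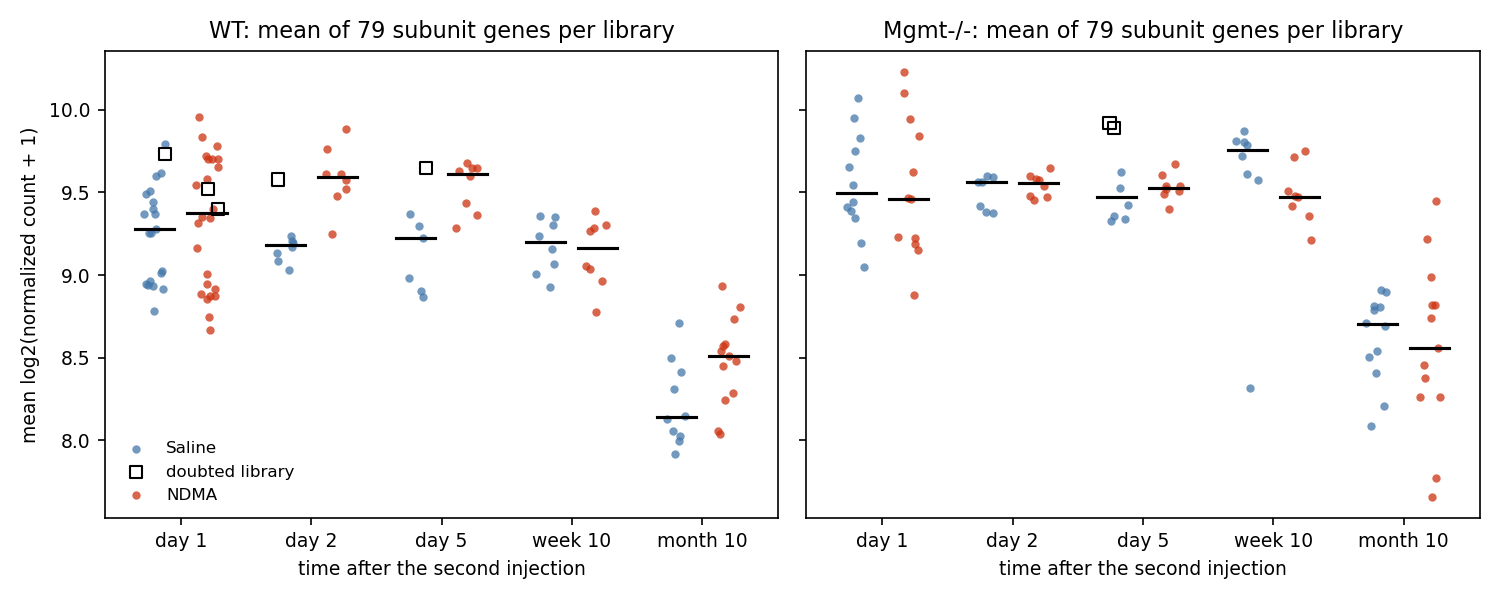
Mean log2(value + 1) of the 79 subunit genes in each library (vertical axis) by time and treatment (horizontal axis), for WT and Mgmt-/- mice; each point is a library, the line is the group's median and open squares are the 5 libraries against their label and the 2 with kidney transcripts. WT NDMA libraries at day 2 lay between 9.25 and 9.88, above the 7 saline libraries that fit their label (9.03 to 9.24), though not once Cox6b2 is left out of the mean, and the Mgmt-/- means over all members overlapped at every time.

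The mean log2 level over the 79 members showed the same shift in whole libraries. At day 2 the WT saline libraries had a lowest, median and highest mean of 9.03, 9.18 and 9.58, and the NDMA libraries of 9.25, 9.59 and 9.88. The highest saline value came from the library against its label, and without it the saline libraries ended at 9.24, below every NDMA library. At day 5 the corresponding values were 8.86, 9.23 and 9.65 for saline and 9.29, 9.61 and 9.68 for NDMA, and 8.86, 9.10 and 9.37 for saline without the library against its label, so that the groups still overlapped. The separation at day 2 rested on Cox6b2, the member with the largest change, as a comparison chosen after seeing the data showed: over the other 78 members the means were 9.11 to 9.32 in the 7 saline libraries and 9.27 to 9.92 in the NDMA libraries, which overlapped. At month 10 the means over all 79 members were 7.92, 8.14 and 8.71 for saline and 8.04, 8.51 and 8.93 for NDMA, with wide overlap. The genes share libraries, so these means are given with no test.

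Complex IV had the highest median at both times. At day 2 the medians were 0.44 for complex I (11 of 38 tested members rose), 0.28 for complex III (1 of 8), 0.53 for complex IV (6 of 13) and 0.27 for complex V (4 of 16). Complex II stood at 0.05, and its catalytic subunit was the 1 member called down. At day 5 the medians were 0.40, 0.02, 0.36, 0.52 and 0.22 for complexes I to V, with 6, 0, 1, 4 and 3 members that rose. The mean level of complex IV members was 8.52 to 8.78 in the 7 saline libraries that fit their label at day 2 and 9.30 to 10.01 in the NDMA libraries, with no overlap. At day 5 it was 8.33 to 8.87 in the 6 such saline libraries and 9.33 to 9.70 after NDMA, again apart. Over the 12 complex IV members other than Cox6b2 the levels were 8.99 to 9.25 against 9.46 to 10.24 at day 2 and 8.79 to 9.48 against 9.49 to 9.98 at day 5, still apart but at day 5 only just. In Mgmt-/- mice the 13 complex IV members had 8.72 to 8.997 in saline and 9.19 to 9.41 in NDMA libraries at day 2, with no overlap, and 8.64 to 8.92 against 9.10 to 9.64 at day 5 without the kidney libraries, with which saline reached 9.75. Without Cox6b2 these groups overlapped, with 9.14 to 9.43 against 9.31 to 9.57 at day 2 and 9.03 to 9.48 against 9.27 to 9.80 at day 5. Of the 22 genes that rose at day 2, 12 also rose at day 5 (54.5% of the first set and 85.7% of the 14 in the second). Among all genes, 108 rose at both times, which is 37.9% of the 285 at day 2 and 56.3% of the 192 at day 5, and the difference from the members was not tested.

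Among complex I genes, Ndufa5, an accessory subunit of the peripheral arm, rose at both times. At day 2 its lowest, median and highest values were 638, 841 and 1117 in saline and 1127, 1532 and 2598 in NDMA livers, with a log2 fold change of 0.90 (SE 0.165, adjusted p = 0.00211). The groups did not overlap, even with the library against its label in place. At day 5 the log2 fold change was 0.85 (SE 0.181, adjusted p = 0.0126), with a small overlap. Ndufa2 rose by 0.75 at day 2 and 0.67 at day 5, and Ndufs6, a zinc-binding subunit of the peripheral arm, by 0.75 and 0.59. Ndufb2 and Ndufa1, small membrane-arm subunits, rose by 0.63 and 0.64 at day 2, and Ndufa1 by 0.71 at day 5. Ndufb4 rose by 0.78 and 0.73, and Ndufb4c by 0.78 at day 5, with the reads of this pair uncertain and both genes among the 6 that were high in all low-read libraries. Without doubted and low-read libraries Ndufb4 was still 0.74 at day 2 (adjusted p = 4.18e-05).

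Genes of complexes III and V rose as well. Uqcr10, a short accessory subunit of complex III, had 1383, 1862 and 2140 in saline and 2283, 3093 and 4808 in NDMA livers at day 2 (log2 fold change 0.81, SE 0.131, adjusted p = 0.000854), with no overlap. Its log2 fold change at day 5 was 0.66. Atp5j2, the f subunit of the membrane sector of ATP synthase, had 1125, 1449 and 1897 in saline and 2021, 2569 and 3723 after NDMA (0.85, SE 0.149, adjusted p = 0.00163). These groups were also apart at day 2, and at day 5 the log2 fold change was 0.79. Atp5mpl rose by 0.80 and 0.68, Atp5e, the epsilon subunit of the central stalk, by 0.72 and 0.65, and Atp5k, subunit e, by 0.66 at day 2. Cox7a2 and Cox7c of complex IV rose by 0.88 and 0.82 at day 2 and by 0.67 and 0.65 at day 5. Cox7a2l, a factor for supercomplexes that the symbol rule places in complex IV, rose by 0.68 at day 5.

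Of the liver forms of complex IV subunits, Cox6b1 rose by 0.66 at day 2 (adjusted p = 0.00417) and Cox6a1 stood at 0.53 (adjusted p = 0.0204), under the fold limit. Cox8a had a log2 fold change of 0.32 (SE 0.431, adjusted p = 0.732) with all libraries. Its value in the low-read library was 137, and without that library and the one against its label the log2 fold change was 0.84 (SE 0.133, adjusted p = 1.73e-05). Atp5j moved likewise from -0.23 (adjusted p = 0.885) to 0.55 (adjusted p = 0.000296), and Atp5md, a small membrane-sector subunit, from 0.11 to 0.76 (adjusted p = 9.19e-06). Without the low-read library alone, Cox8a was at 0.75 (adjusted p = 0.00151), Atp5j at 0.46 (adjusted p = 0.0176) and Atp5md at 0.68 (adjusted p = 0.000888), so this 1 library decided whether they passed the adjusted p threshold.

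A list of 20 core genes had lower medians than the other members. It held the nuclear core subunits of complex I, the 4 subunits of complex II, the Rieske and core proteins of complex III, the alpha, beta and gamma genes of complex V, and Cox4i1, Cox5a and Cox5b of complex IV, and left out the c-ring, delta and epsilon genes of complex V. The complex IV genes on it are not catalytic, since the catalytic subunits of that complex are made in the mitochondrion. Of the 20 genes at WT day 2, 1 rose and 1 fell, with a median log2 fold change of 0.04, whereas 21 of the 59 other members rose, with a median of 0.50. Among all genes 3.33% rose and 2.91% fell, so 1 of 20 is close to that share. At day 5 none of the 20 rose and 1 fell (median 0.03), against 14 of 59 (median 0.47) and 2.22% and 1.39% of all genes. Without the complex IV genes, a choice made after seeing the data, 0 of 17 rose and 1 fell by limma at each time, with medians of 0.0023 and -0.0025. Sdha, the flavoprotein of succinate dehydrogenase, had 421, 602 and 906 in saline and 284, 430 and 549 in NDMA livers at day 2 and fell by 0.59 on the log2 scale (SE 0.176, adjusted p = 0.0447). It fell by 0.62 at day 5 (SE 0.171, adjusted p = 0.0498), and both calls lay close to the limits. With all libraries the day 2 call was lost in edgeR, in DESeq2, at 1 total per library, with no filter on low values, without covariates and with total reads as a term. Without the library against its label it held in edgeR and DESeq2. Ndufs1, the 75 kDa iron-sulfur subunit of complex I, was at -0.71 at day 2 (adjusted p = 0.0553) and -0.65 at day 5 (adjusted p = 0.0948). Cox5b, a zinc-binding subunit of complex IV, was the one gene of the list that rose, from 72.5, 84.9 and 189 to 133, 159 and 195 (0.70, SE 0.182, adjusted p = 0.0216), and without the library against its label the groups were apart. The ATP synthase alpha and beta genes Atp5a1 and Atp5b were at -0.44 (adjusted p = 0.0352) and -0.21 (adjusted p = 0.31). The remaining genes of the list lay between -0.20 (Uqcrc2) and 0.37 (Ndufs3).

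**Figure D2:**
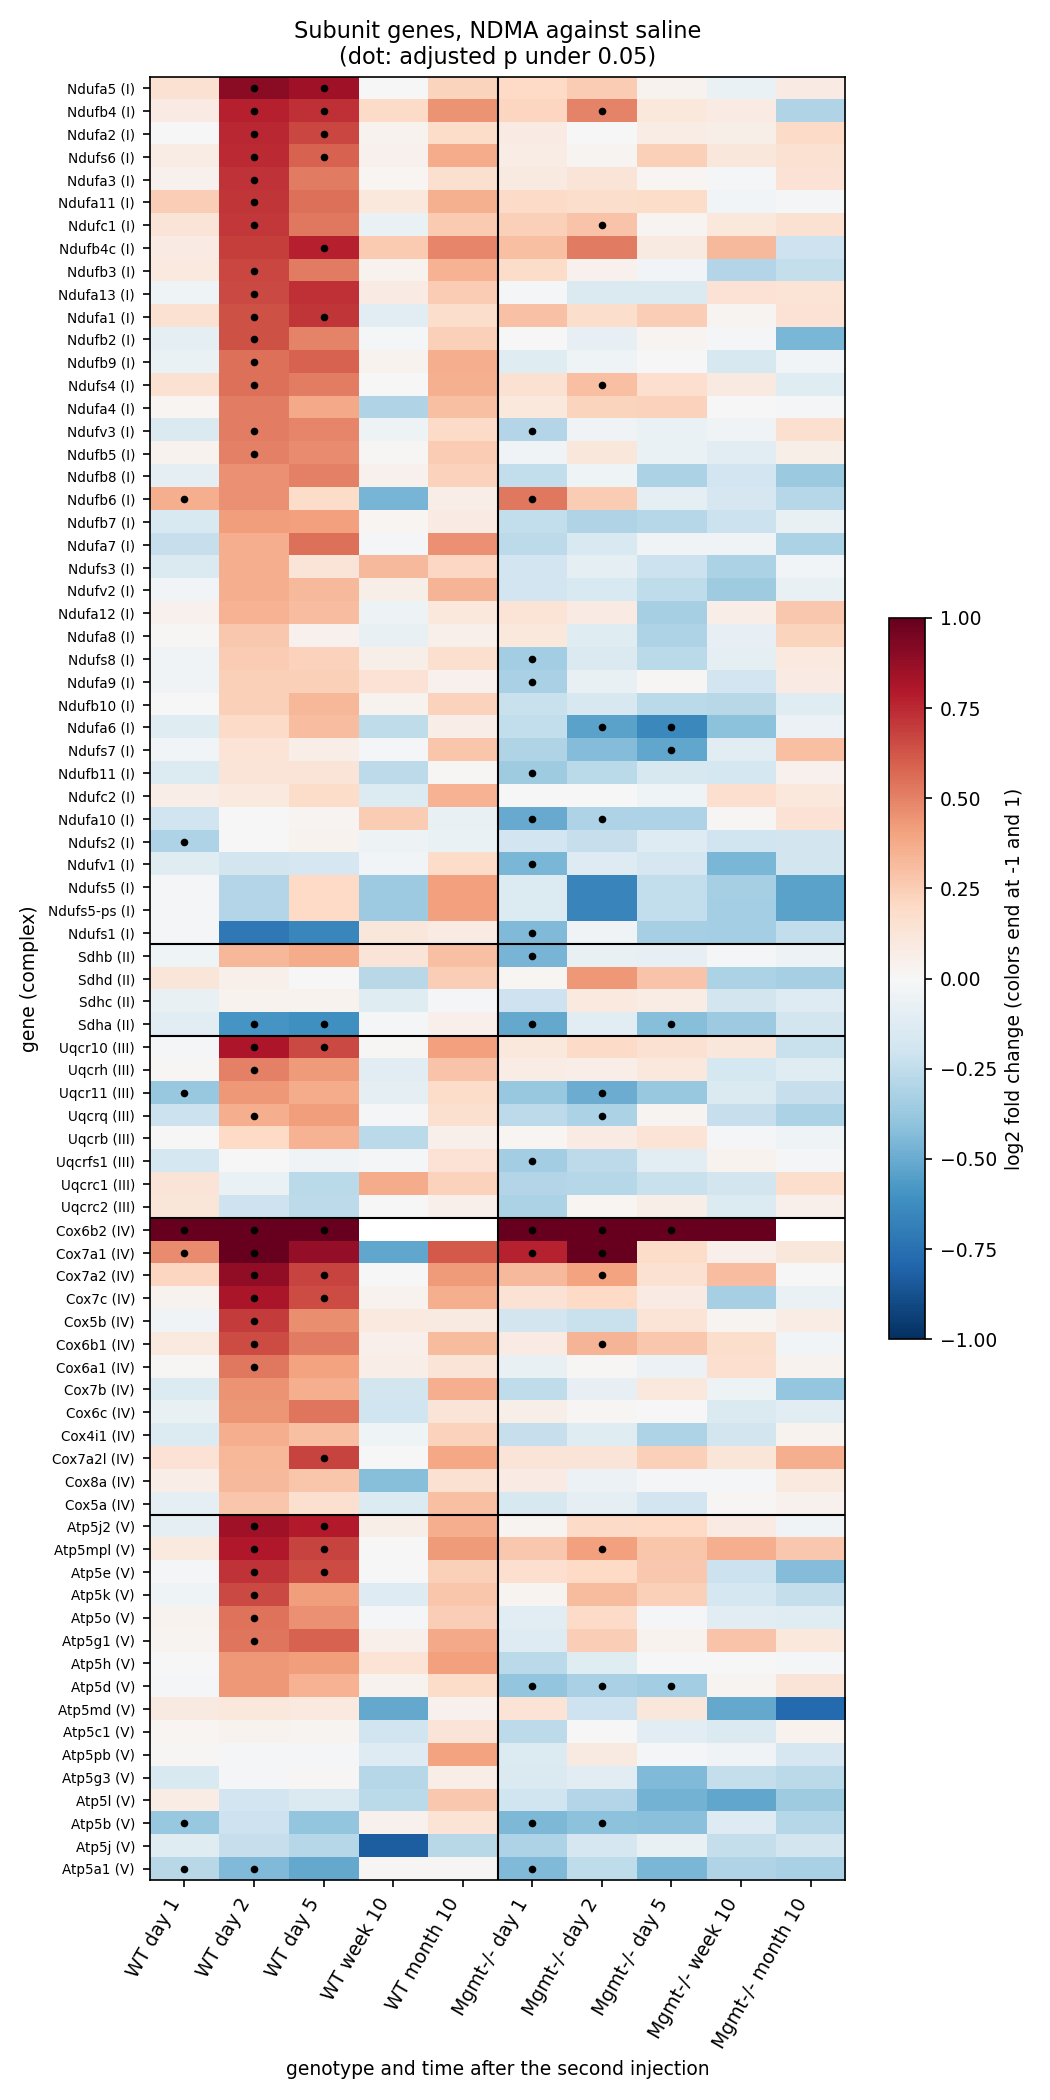
Log2 fold change of NDMA against saline (color, ending at -1 and 1, which Cox6b2 and Cox7a1 pass) for each subunit gene (rows, by complex) in each genotype and time (columns), with all libraries. A dot marks an adjusted p under 0.05 in limma whatever the fold, and a blank was not tested; in WT at days 2 and 5, 31 and 14 genes have a dot and a positive value (4.23% and 2.26% of all genes tested) and 2 and 1 a dot and a negative value (3.47% and 1.39%).

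Cox6b2, which encodes the testis form of the subunit that clamps the 2 monomers of complex IV, had the largest change of any member. In WT mice it was 3.66, 9.80 and 144 in saline and 16.3, 91.0 and 181 in NDMA libraries at day 1 (log2 fold change 2.64, SE 0.248, adjusted p = 6.76e-11). The saline value of 144 and the NDMA values under 49.2 came from the libraries that go against their labels, and without them saline ended at 31.1 and NDMA began at 49.2. At day 2 it was 4.33, 7.50 and 124 in saline and 78.3, 109 and 202 after NDMA (3.42, SE 0.496, adjusted p = 0.00062), and at day 5 it was 2.12, 5.36 and 117 against 65.9, 122 and 188 (3.77, SE 0.601, adjusted p = 0.00346). The highest saline value at each time was again the library against its label. Without these libraries the groups did not overlap at any of the 3 times, and the log2 fold changes were 2.99, 3.92 and 4.37. In all 5 such libraries the Cox6b2 level, like that of Cdkn1a, was that of the other treatment.

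In Mgmt-/- mice Cox6b2 was 3.99, 9.10 and 24.2 in saline and 148, 270 and 414 in NDMA livers at day 1 (4.53, SE 0.18, adjusted p = 4.55e-21). At day 2 it was 6.36, 10.4 and 12.8 against 182, 217 and 250 (4.33, SE 0.154, adjusted p = 7.83e-17). At day 5 it was 2.73, 8.78 and 127 against 131, 182 and 242, and the saline libraries with kidney transcripts had 111 and 127. Without those 2 the saline values ended at 21.5 and the log2 fold change was 4.63 (SE 0.335, adjusted p = 3.27e-08). Both groups were low at week 10, with 0, 3.44 and 14.1 in saline and 2.64, 8.36 and 30.7 after NDMA (1.28, SE 0.527, adjusted p = 0.13), and they overlapped. Cox6b2 was the one member called up at 3 times in each genotype.

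Cox7a1, the heart and muscle form of subunit 7a, also rose. In WT livers at day 2 it was 16.9, 23.5 and 38.6 in saline and 39.0, 46.0 and 121 after NDMA, with no overlap (1.18, SE 0.234, adjusted p = 0.00368). In Mgmt-/- livers it was 15.4, 34.8 and 45.9 against 55.7, 71.9 and 98.9 at day 2, also apart (1.15, SE 0.201, adjusted p = 8.01e-05), and its log2 fold change was 0.77 at day 1 (adjusted p = 0.000944). At WT day 5 the log2 fold change was 0.88 (adjusted p = 0.2), and at day 5 in Mgmt-/- mice it was 0.18 with all libraries and 0.75 (adjusted p = 0.0189) without the kidney libraries, where it had been 145 and 181. The other muscle and lung forms Cox6a2, Cox8b and Cox4i2 stayed under the mean of 5 in both tables. None of 7 skeletal and heart muscle markers reached a mean of 5 in WT at any of the 3 early times or in Mgmt-/- mice at days 1 and 2, and at WT day 2 their summed level was 0 to 3.89 in saline and 0 to 7.80 in NDMA libraries, with Myh1, Myh4 and Tnnt3 at 0 in both. In Mgmt-/- mice the summed median, with Acta1 the most abundant, was 1.39 in saline and 5.47 after NDMA at day 1 and 1.27 and 4.96 at day 2, and both times the groups overlapped. At day 5 it was 0, 0.837 and 3.87 against 5.70, 15.99 and 23.8, with no overlap, and Acta1, the skeletal muscle actin, rose by 3.23 (adjusted p = 2.64e-05). The part of muscle transcripts in the Cox7a1 values was not tested.

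**Figure D3:**
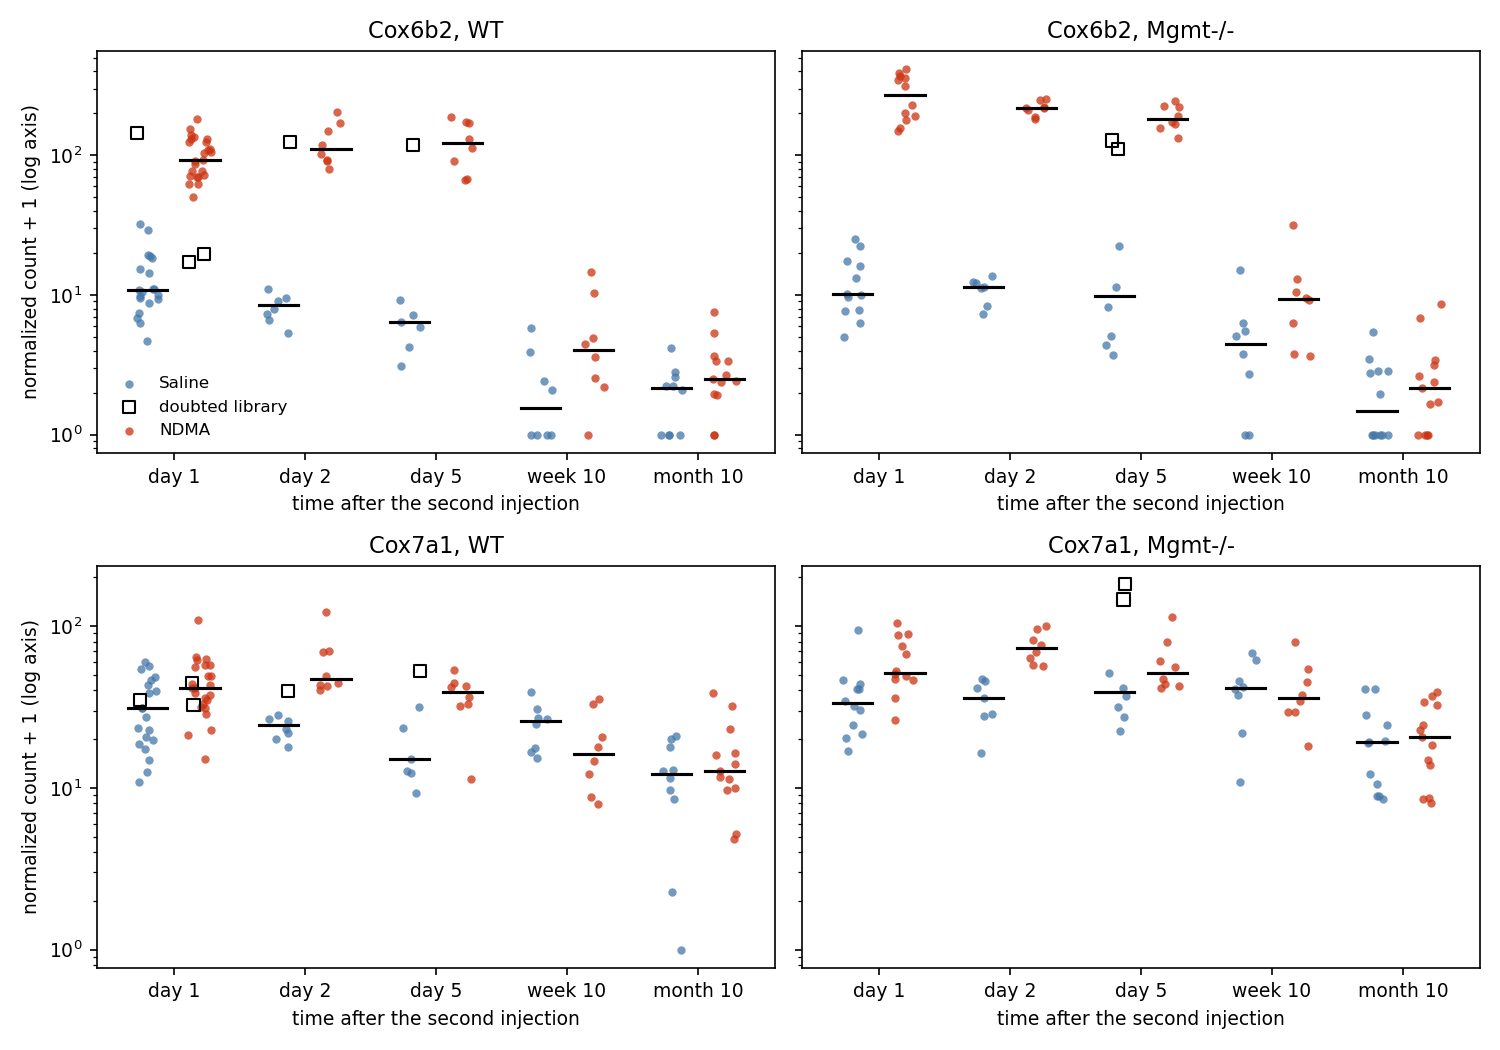
Levels of Cox6b2 and Cox7a1 in every library (vertical axis, normalized value + 1 on a log scale) by time and treatment in each genotype; the line is the group's median and open squares are the libraries against their label or with kidney transcripts. At day 2 the Mgmt-/- NDMA libraries have Cox6b2 values of 182 to 250 against 6.36 to 12.8 in saline, and the open squares among WT saline libraries lie at the NDMA level.

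Cox6b2 lies on chromosome 7 (GRCm38, chr7:4751792-4753094, minus strand). Its promoter is shown beside those of 4 members that moved with the group or differed between genotypes, to show which of them hold the letters of known regulators of mitochondrial genes, and this choice was made with their values in view. The sequences are RefSeq windows on GRCm38.p6, 300 bases each, from 250 before to 50 after the gene's start, 5′ to 3′ on the gene's strand, and capitals mark an exact motif match. Searched on both strands were NRF1 as GCATGCGC, ETS as CCGGAAGT, YY1 as AAGATGGCG, CRE as TGACGTCA and ERR as TCAAGGTCA. Windows are chr7:4753045-4753344 for Cox6b2, chr5:145191492-145191791 for Atp5j2, chr5:108434350-108434649 for Atp5k and chr10:80406772-80407071 for Uqcr11, all on the minus strand, and chr6:39592315-39592614 on the plus strand for Ndufb2.
Cox6b2: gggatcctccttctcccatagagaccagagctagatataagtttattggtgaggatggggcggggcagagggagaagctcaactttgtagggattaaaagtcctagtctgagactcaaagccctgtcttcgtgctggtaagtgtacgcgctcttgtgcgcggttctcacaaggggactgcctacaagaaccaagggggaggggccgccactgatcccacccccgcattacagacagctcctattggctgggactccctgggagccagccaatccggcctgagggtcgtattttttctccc
Atp5j2: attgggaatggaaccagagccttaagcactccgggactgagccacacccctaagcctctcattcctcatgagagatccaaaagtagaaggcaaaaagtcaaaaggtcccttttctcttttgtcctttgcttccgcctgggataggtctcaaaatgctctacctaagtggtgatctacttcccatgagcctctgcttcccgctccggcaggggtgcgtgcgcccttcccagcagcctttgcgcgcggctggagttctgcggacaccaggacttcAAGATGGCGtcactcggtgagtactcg
Atp5k: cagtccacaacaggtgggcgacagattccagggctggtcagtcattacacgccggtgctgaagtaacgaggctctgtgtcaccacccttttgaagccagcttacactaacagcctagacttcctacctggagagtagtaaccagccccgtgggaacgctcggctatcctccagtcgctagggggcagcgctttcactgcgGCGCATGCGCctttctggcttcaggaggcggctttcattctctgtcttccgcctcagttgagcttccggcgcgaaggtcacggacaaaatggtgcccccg
Ndufb2: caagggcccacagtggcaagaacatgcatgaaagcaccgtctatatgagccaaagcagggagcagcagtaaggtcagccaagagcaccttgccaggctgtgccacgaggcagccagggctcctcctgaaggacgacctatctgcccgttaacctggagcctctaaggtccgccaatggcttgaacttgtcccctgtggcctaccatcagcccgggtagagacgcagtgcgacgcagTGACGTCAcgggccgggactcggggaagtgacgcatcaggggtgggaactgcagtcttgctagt
Uqcr11: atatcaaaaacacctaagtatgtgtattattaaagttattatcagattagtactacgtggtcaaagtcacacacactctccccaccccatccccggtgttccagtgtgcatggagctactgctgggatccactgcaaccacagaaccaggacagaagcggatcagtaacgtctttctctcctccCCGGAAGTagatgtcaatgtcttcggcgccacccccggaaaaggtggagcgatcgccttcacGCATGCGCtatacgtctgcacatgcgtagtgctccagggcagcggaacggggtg

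The Cox6b2 window held none of the 5 motifs in these letters, which was also so for most of the 68 members with a window. The Atp5j2 window held YY1, the Atp5k window 2 overlapping NRF1 matches, the Ndufb2 window CRE, and the Uqcr11 window ETS and NRF1. Of 68 members with a window, 10 (14.7%) held NRF1, against 3.05% of all 27025 genes with one. YY1 was in 7 (10.3% against 1.64%), ETS in 5 (7.35% against 4.31%), CRE in 4 (5.88% against 2.03%) and ERR in 2 (2.94% against 0.466%). The 27025 genes were not limited to those measured in liver and were not matched to the members in level. Among the 10 members with NRF1 was Atp5g2, which was set aside as low. A match is a description of the letters and says nothing of binding in these livers.

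Genes with short transcripts, which most members are, had a positive median as a class at WT days 2 and 5. Of the 84 members with a transcript length, 60 were under 1000 bases. At day 2 the median log2 fold change of 52 tested members under 1000 bases was 0.51, and that of 897 other genes in this class was 0.28; 20 of the members and 108 of the others rose. From 1000 to 2000 bases the medians were 0.15 for members and -0.04 for others, and from 2000 to 4000 bases -0.22 for 6 members and -0.17 for others. At day 5 they were 0.44 against 0.30, 0.08 against -0.02, and -0.24 against -0.17. Across the 76 members with a length, Spearman's rho of fold change with length was -0.52 at day 2 and -0.51 at day 5, and across all genes -0.22 and -0.28, as a description over genes of the same libraries. Sdha (2900 bases) and Ndufs1 (2626 bases) are among the longest members, and Ndufa5 (595 bases) among the short ones. Cytosolic ribosomal protein genes, another list of short and abundant transcripts, had medians of 0.25 and 0.27 at days 2 and 5. The part of transcript length in the member changes was not tested.

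**Figure D4:**
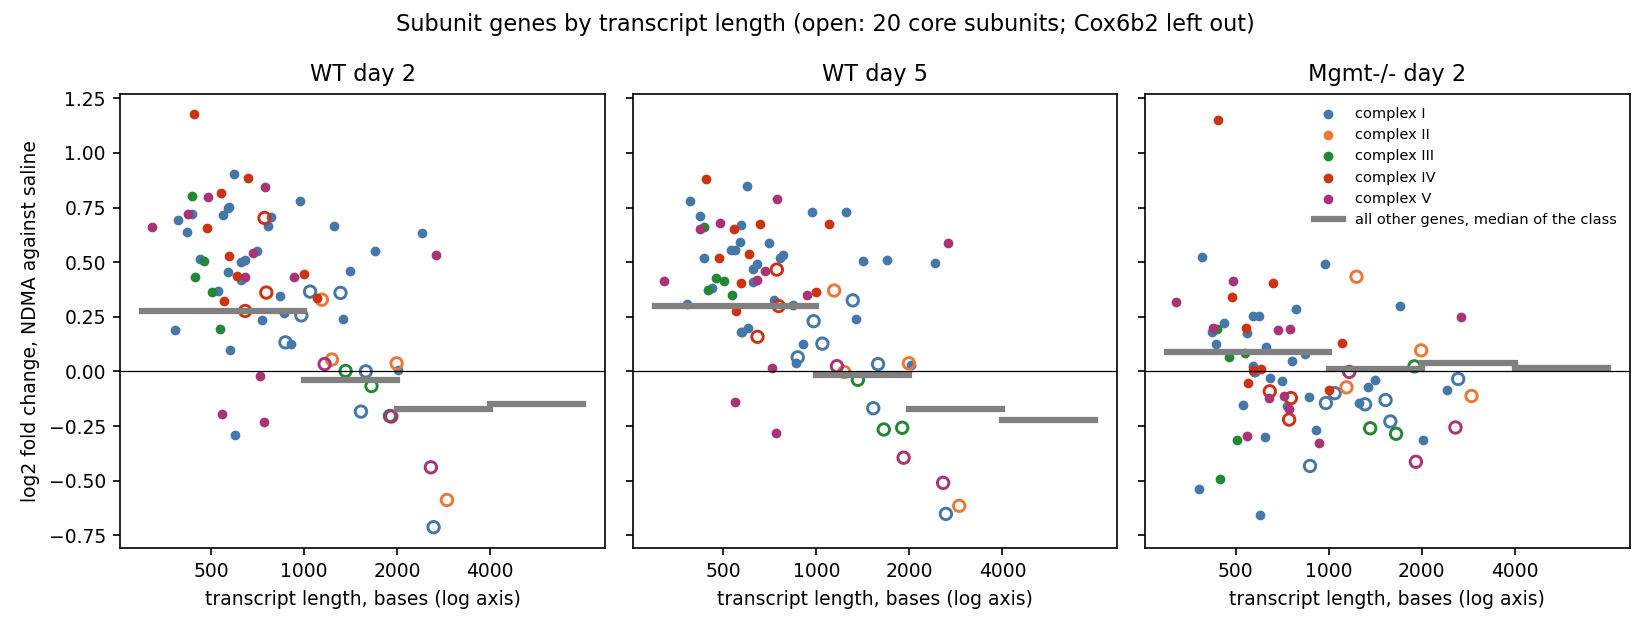
Log2 fold change of each subunit gene (vertical axis) against its transcript length in bases (horizontal axis, log scale) at WT day 2, WT day 5 and Mgmt-/- day 2; open points are the 20 core subunits, gray is the median of all other genes in each length class, and Cox6b2 is left out. At WT day 2 the members under 1000 bases have a median of 0.51 and the other genes of that class 0.28.

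Markers of liver cell types also moved. At WT day 2 the 7 hepatocyte markers had a median log2 fold change of -0.53, with Alb at -0.92 and Cps1 at -0.90, and their summed level was 154587 to 266312 in saline and 135217 to 191843 in NDMA libraries, with Alb the most abundant. All 5 pericentral markers fell, among them Cyp2e1, the enzyme that activates NDMA (-2.07), and Glul (-2.29), and their summed median went from 10452 to 1990, with Cyp2e1 the most abundant. Of the 9 macrophage and Kupffer cell markers 2 rose (Marco 1.22, Lyz2 0.68) and 2 fell (Clec4f, Vsig4), with a summed median of 1219 in saline and 1400 after NDMA. Of the T cell markers 3 of 7 were tested and Cd3d rose, with a summed median of 24.2 in saline and 51.7 after NDMA. Of the 5 tested stellate cell and fibroblast markers Dcn, the most abundant, fell (-1.07, adjusted p = 0.00156), and the summed level was 736, 809 and 1465 in saline and 421, 484 and 716 in NDMA libraries, with no overlap. None of these markers of the hepatocyte, pericentral, macrophage, T cell or stellate cell lists was at 0 in a whole group at day 2. At WT day 5 Cps1 (-1.002) was the 1 of 7 hepatocyte markers that fell, and their summed median was 194209 in saline and 187599 after NDMA. All 5 pericentral markers fell, among them Glul (-1.91), with a summed median of 8497 and 2958. Of the macrophage and Kupffer cell markers 2 of 9 rose (Lyz2 1.33, Cd5l 1.18), with a summed median of 866 and 1526, and of the T cell markers 2 of 3 tested (Cd3d 2.39, Cd3g 1.38), with 14.3 and 50.9 and no overlap between groups. Dcn was the 1 of 5 tested stellate cell and fibroblast markers that fell (-0.89), with a summed median of 805 and 432. The part of cell composition in the member changes was not tested.

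At week 10 and month 10 no member passed the test in WT mice. At week 10 limma, edgeR and DESeq2 called 0 members, no member had an unadjusted p under 0.05, and 0.0249% of all genes rose and 0% fell. The largest values were 0.37 for Uqcrc1 (SE 0.317) and -0.83 for Atp5j (SE 0.584), the latter with the low-read library in place. At month 10 the 3 tools again called 0 members, and 0% of all genes rose and 0% fell. Yet 74 of 78 members were positive there, with a median of 0.23 against -0.06 over all genes, and 13 had an unadjusted p under 0.05. Atp5mpl stood at 0.43 (SE 0.141, adjusted p = 0.554) and Cox7a1 at 0.62 (SE 0.466, adjusted p = 0.702). The members share libraries and one scaling, so a common sign is not 74 separate observations.

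In Mgmt-/- mice the calls at days 1 and 2 were the isoforms Cox6b2 and Cox7a1, and 8 genes of the core list had negative values past the adjusted p threshold at day 1, of which Sdha and Sdhb stayed past it with another scaling. At day 1, 2 members rose and none fell, against 9.06% and 8.64% of all genes, with a median of -0.13 against 0.02. By adjusted p alone, 3 rose and 13 fell, against 13.2% and 11.8%. Of the 20 core genes 8 had an adjusted p under 0.05 and a negative value, 1 of 20 was positive, and their median was -0.30, whereas the other 59 had a median of 0.02. Sdha had 304, 659 and 1025 in saline and 177, 411 and 763 in NDMA livers, a log2 fold change of -0.51, under the fold limit (SE 0.135, adjusted p = 0.00405). Sdhb and Ndufv1, the NADH-binding flavoprotein of complex I, were at -0.46 each, Atp5b at -0.45, Atp5a1 and Ndufs1 at -0.44 each, Ndufs8 at -0.35 and Uqcrfs1, the Rieske protein of complex III, at -0.34, all with an adjusted p under 0.05 and overlapping groups. Ndufb6 was at 0.53 (adjusted p = 0.00704).

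The direction for the group at day 1 rested on scaling. With every library scaled to 1 total, the median of all genes moved from 0.02 to 0.20 and that of the members from -0.13 to 0.07. By adjusted p alone 21 members then rose and 3 fell, against 23.5% and 7.08% of all genes. The values of Sdha (-0.31, adjusted p = 0.036), Ndufa10 (-0.31, adjusted p = 0.0198) and Sdhb (-0.26, adjusted p = 0.0431) stayed past the adjusted p threshold and those of the other 10 did not. Relative to all genes the member median was lower under both scalings. The mean level of the 79 members was 9.05, 9.49 and 10.07 in saline and 8.88, 9.46 and 10.23 in NDMA libraries, with near-complete overlap. Cell type markers moved at this time as well. Of 7 hepatocyte markers 4 fell (Serpina1c -0.99, Alb -0.82, Cps1 -0.81 and Apoa1 -0.80). Their summed level was 155945, 306484 and 408105 in saline and 102611, 198729 and 247373 after NDMA, with Alb the most abundant. All 5 pericentral markers fell, with a summed median of 6976 in saline and 505 after NDMA, as did all 6 tested red cell markers (39164 and 22344) and 4 of 5 tested stellate cell and fibroblast markers (1020 and 654). Of 9 macrophage and Kupffer cell markers 2 rose (Marco 1.19, Cd68 0.97) and 3 fell (Clec4f -1.23, Csf1r -0.97 and Vsig4 -0.87), with a summed median of 1121 and 1371. Of 6 endothelial markers 1 rose (Lyve1 0.72) and 3 fell, among them Stab2 (-1.43), with 418 and 327. In the T cell list 1 of 3 tested rose (Cd3d 1.403), with 24.1 and 51.5, and in the neutrophil list 3 of 5 fell, with 433 and 262. The part of cell composition in the values of the core subunits was not tested.

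At day 2 in Mgmt-/- mice, 2 members rose and none fell, against 12.4% and 7.5% of all genes, with a median of -0.03 against 0.03. By adjusted p alone 8 rose and 6 fell, against 15.9% and 10.5%, and with 1 total per library 29 rose and 2 fell, against 24.9% and 6.52%. Under that scaling the member median was 0.14 and that of all genes 0.19, so the direction of the group again went with the scaling. Ndufa6, an accessory complex I subunit of the LYR family, had 1682, 1932 and 2082 in saline and 1014, 1393 and 1577 in NDMA livers, with no overlap (-0.54, SE 0.102, adjusted p = 0.000219). Cox7a2 had 1779, 1922 and 2068 against 2346, 2518 and 2754, also apart (0.41, SE 0.0826, adjusted p = 0.000486). Atp5b was at -0.41 (adjusted p = 0.000824) and Ndufb4 at 0.49 (adjusted p = 0.011), both under the fold limit. The values of Ndufa6, Atp5b, Cox7a2 and Ndufb4 kept their sign and stayed past the adjusted p threshold with 1 total per library. At this time 3 of 7 hepatocyte markers fell, with a summed level of 324385 to 405838 in saline and 203029 to 269653 after NDMA. Of 9 macrophage markers 6 rose, with 819 to 1432 against 1920 to 5445. The T cell markers Cd3d (2.58), Lck (2.22) and Cd3g (1.79) rose, with a summed level of 19.8 to 33.4 against 65.3 to 213. The pericentral markers Cyp2e1 (-3.13) and Glul (-2.70) fell. Of the proliferation markers Ccnb1 rose (1.45) and Mki67 did not (-0.01). The part of cell composition in the member values was not tested.

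At day 5 in Mgmt-/- mice Cox6b2 rose and Ndufa6 fell, against 7.17% and 3.14% of all genes, with a median of -0.02 against -0.01. Ndufa6 had 1857, 2100 and 2864 in saline and 1068, 1405 and 1745 after NDMA, with no overlap (-0.65, SE 0.13, adjusted p = 0.00288). Without the 2 kidney libraries 2 members rose and none fell, against 11.1% and 6.71% of all genes, the median was 0.08 against 0.03, and Ndufa6 was at -0.55 (adjusted p = 0.000849). Sdha was at -0.43 (adjusted p = 0.0236) with all libraries and at -0.33 (adjusted p = 0.024) without the kidney libraries. Cell type markers moved too, with all libraries, so that the saline ranges include the 2 with kidney transcripts. T cell markers rose (Cd3d 3.37, Cd3g 2.58 and Lck 2.38), with a summed level of 9.15 to 29.4 in saline and 84.7 to 185 after NDMA. Summed macrophage and Kupffer cell markers were 102 to 1663 against 1999 to 2864, with Lyz2 at 1.98. The pericentral marker Glul fell (-2.24). The part of cell composition in the day 5 values was not tested. At month 10 limma called 0 members, against 4.75% and 2.99% of all genes, edgeR and DESeq2 called 0 as well, and 7 members had an unadjusted p under 0.05, among them Atp5a1 at -0.32 (SE 0.106, adjusted p = 0.0504).

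At week 10 in Mgmt-/- mice 0 members were called by limma, edgeR or DESeq2 with all libraries and 2 had an unadjusted p under 0.05, against 7.27% of all genes that rose and 3.88% that fell, and the member median was -0.09 against 0.04. The saline library that stood apart, D209001, decided this result. It was picked for its low mean over the members themselves, so leaving it out raises the saline member level by construction. In it 29.5% of members but 5.17% of other genes were more than 2 log2 units lower than in the group. Without D209001 none rose and 6 fell, against 8.92% and 4.89% of all genes. Of 79 members 74 were then negative, and the median was -0.25 against 0.06. The 6 were Atp5l, Atp5md, Ndufs5, Ndufs5-ps, Cox7c and Ndufa6. Of these, Atp5l, Atp5md, Ndufs5 and Ndufs5-ps were also low in all WT low-read libraries. Ndufs5 and Ndufs5-ps are near-identical copies and not separate cases. Cox7c was then at -0.69 (SE 0.134, adjusted p = 0.000588) and Ndufa6 at -0.59 (SE 0.133, adjusted p = 0.00237). With 1 total per library and the same library out, 0 members were called and the median was 0.04 against 0.34 over all genes, so the direction did not hold under that scaling. Markers of other cells rose at this time with all libraries. Of 5 tested stellate cell and fibroblast markers 3 rose (Col1a1 2.39, Col1a2 2.20 and Col3a1 1.79), and their summed level, mostly Dcn, was 344, 398 and 454 in saline and 550, 642 and 850 after NDMA, with no overlap. Of 9 macrophage and Kupffer cell markers 4 rose, among them Lyz2 (1.77) and Cd68 (1.53), with a summed median of 843 and 1640, as did all 3 tested proliferation markers and the cholangiocyte marker Spp1 (3.13). Of the hepatocyte markers 1 of 7 fell (Serpina1c -1.01), with a summed median of 191214 and 135799 and Ttr the most abundant, and 4 of 5 pericentral markers fell. The part of these cells in the member values was not tested.

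The change after NDMA was compared between genotypes in a joint edgeR fit on recovered reads. At day 2, 8 members had a lower response in Mgmt-/- mice and none a higher one (adjusted p under 0.05), where 1.56% of all genes were lower. These were Cox5b (difference of log2 fold changes -1.04, adjusted p = 0.00633), Uqcr11 (-0.86), Atp5d, the delta subunit of the central stalk (-0.74), Ndufa2 (-0.73), Ndufa6 (-0.70), Ndufb2 (-0.67), Atp5j2 (-0.66) and Uqcrq (-0.64). Of the 79 members 71 had a negative difference, with a median of -0.41 against 0.00 over all genes. Without the library against its label the count was 12, against 1.48%, and without the low-read library as well it was 35, against 2.81% of all genes. Genotype and library batch cannot be told apart at days 2 and 5 and week 10, and with library totals in place of TMM factors the count was 3.

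At day 5 no member had a different response between genotypes with all libraries (27 had an unadjusted p under 0.05). Of 8959 genes tested there, 61 had a higher and 21 a lower response in Mgmt-/- mice. With the libraries against their label, with kidney transcripts or with few reads left out, 5 were lower in Mgmt-/- mice (Ndufa5, Ndufa6, Ndufa7, Ndufb8 and Uqcrq), against 2.24% of all genes. At day 1 none differed with all libraries (10 with an unadjusted p under 0.05), where of 10068 genes 0 were higher and 1 lower. Without the libraries against their label Cox6b2 had a higher response in Mgmt-/- mice, by 1.34 (adjusted p = 0.00044), against 0.00995% of all genes. At week 10 and month 10 none differed, with 0 and 8 at an unadjusted p under 0.05. Of 7138 genes tested at week 10, 267 had a higher and 242 a lower response in Mgmt-/- mice. Of 8660 genes at month 10, 77 were higher and 60 lower. Without saline D209001, picked for its low member mean, Cox7c had a lower response in Mgmt-/- mice at week 10, against 3.81% of all genes. In that fit 6 members had an unadjusted p under 0.05.

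**Figure D5:**
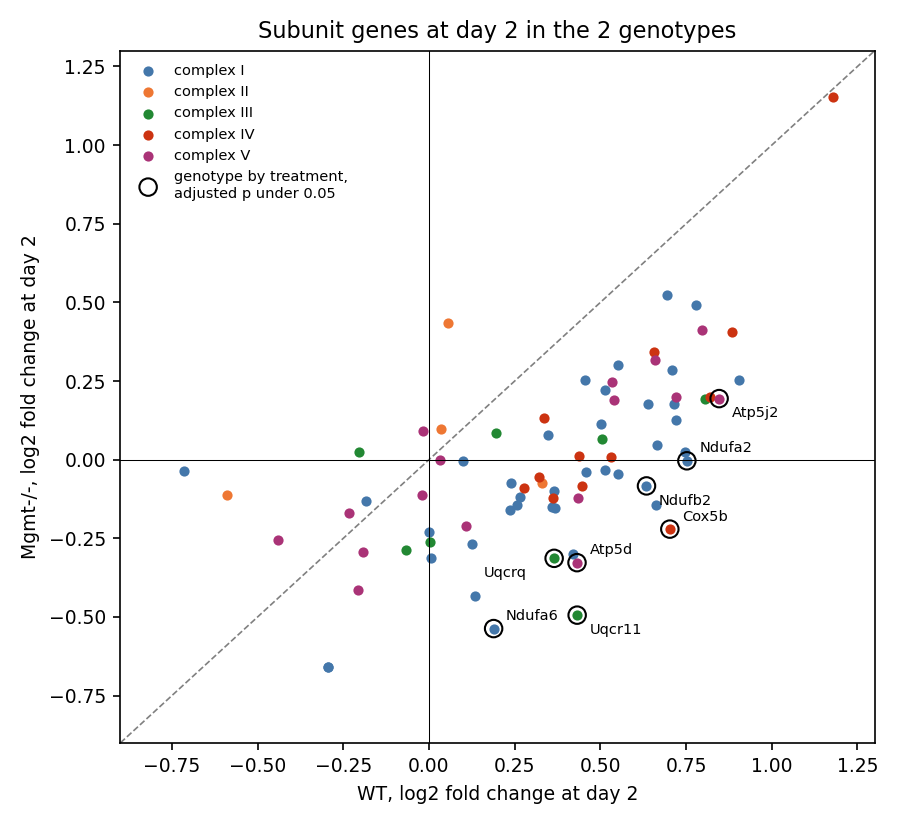
Log2 fold change at day 2 of each subunit gene in WT (horizontal axis) and in Mgmt-/- mice (vertical axis), by limma with all libraries; circles mark the 8 named genes whose responses differ in the joint edgeR fit (adjusted p under 0.05), the dashed line is equality, and Cox6b2 lies outside the axes. Most points lie below the line, and in the joint fit 71 of 79 members had a negative difference.

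Within a genotype, the response was compared between times. WT day 1 shared no library batch with WT day 2, day 5 or week 10. Mgmt-/- days 2 and 5 shared none with Mgmt-/- week 10 and month 10. Between those times, responses that differ by time and by batch cannot be told apart. In WT mice 24 of 79 members had a treatment effect that differed between times (limma F test over 4 terms, adjusted p under 0.05), against 6.87% of all genes, and in Mgmt-/- mice 2 did (Cox6b2 and Ndufa10), against 12.3%. The WT genes comprised 11 of complex I, 3 of complex III, 5 of complex IV and 5 of complex V, with Cox6b2, Atp5j2, Ndufa2, Ndufa7 and Uqcr10 at the head of the list. Without libraries against their label or of few reads the WT count was 39, against 14.6% of all genes. By limma 0 members had a response that differed between the sexes at any time in either genotype (adjusted p under 0.05), with 0 to 4 at an unadjusted p under 0.05 in each comparison except Mgmt-/- month 10, where there were 13. Of all genes, 11 of 9681 differed between the sexes at Mgmt-/- week 10, 34 of 10066 at Mgmt-/- month 10, and 0 in the other comparisons.

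Other genes of the pathway did not all follow the subunits. Of 49 assembly factors 46 were tested at WT day 2, where 4 rose and none fell (Lyrm2 0.98, Pet100 0.89, Coa6 0.65 and the copper chaperone Cox17 0.60) and the median was 0.12, and 3.33% of all genes tested rose there. In Mgmt-/- mice at day 2, 1 rose (Cox17 0.66) and 6 fell, among them Sco2, a complex IV copper factor (-0.72), where 12.4% of all genes rose and 7.5% fell. Of 15 electron carriers and their makers, 1 of 13 tested fell at WT day 1, 1 of 14 rose and 1 fell at day 2 and none was called by limma at day 5. The shares of all genes that rose and fell at these WT times are given above with the member counts. Among the same electron carriers and makers in Mgmt-/- mice, 5 of 14 fell at day 1, 3 of 13 fell and 1 rose at day 2 and 3 of 14 fell at day 5, where 8.64%, 7.5% and 3.14% of all genes fell. Coq8a, which is needed for ubiquinone synthesis, fell in WT mice at days 1 and 2 (-1.03 and -0.96) and in Mgmt-/- mice at days 1, 2 and 5 (-1.79, -1.72 and -1.60). Coq4 and Coq9 of the same synthesis also fell in Mgmt-/- mice at these times (-0.87, -0.90 and -1.21 for Coq4, and -0.71, -0.67 and -0.76 for Coq9), and Cycs, cytochrome c itself, rose at day 2 in both genotypes (0.65 in WT and 0.64 in Mgmt-/-). Of 9 carriers and regulators of ATP synthesis 8 were tested, and 1 rose at WT days 2 and 5 and at Mgmt-/- day 1 and none fell. Of all genes tested, 285 of 8568, 192 of 8654 and 911 of 10055 rose at these times. Atpif1, the inhibitor that stops ATP synthase from running backwards, was the gene each time, in WT at days 2 and 5 (0.85 and 0.74) and in Mgmt-/- mice at day 1 (0.69).

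By limma 0 of 13 citric acid cycle genes were called at WT day 2 (5 at an unadjusted p under 0.05), with 1 of 13 positive and a median of -0.31. In Mgmt-/- mice 1 of 13 fell at day 1 and 2 of 13 at days 2 and 5, and Suclg2, a succinyl-CoA ligase subunit, fell at all 3 times (-1.05, -1.08 and -0.76). The shares of all genes that fell at these times are given above with the electron carriers. The day 1 count was no more than its share. Of 76 tested mitochondrial ribosomal protein genes 4 rose at WT day 2 (median 0.20), not far from the 3.33% of all genes that did. Of the regulators of mitochondrial biogenesis 7 of 11 were tested at WT day 2, limma called 0 (0 at an unadjusted p under 0.05), and Ppargc1a, a coactivator for mitochondrial genes, was at -0.27 (adjusted p = 0.609). Of the 8 tested carriers and regulators of ATP synthesis 2 rose in Mgmt-/- mice at week 10 and at month 10, where 7.27% and 4.75% of all genes rose. These were the uncoupling protein gene Ucp2 (1.33 and 1.43), which also rose at day 2 (0.77), and the ADP/ATP carrier Slc25a4 (1.16 and 0.92).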

How the data were processed

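Liver RNA from 213 of 214 labelled libraries was analysed. The authors mapped 3′ digital gene expression reads to GRCm38/mm10 (STAR), assigned them to genes (ESAT) and scaled each library's counts by its DESeq2 median-of-ratios size factor, separately in each genotype; tool versions and the annotation are not given in the sources used here. The deposited values are therefore a signal in units of normalized counts, not raw reads. In 209 libraries all values were whole multiples of 1 read (100.0% of values, tolerance 0.1) and reads were recovered; 0 sample columns were left unused. The study's methods count a mouse as 1 replicate.

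NDMA was compared with saline within each genotype and time with limma 3.58.1 on log2(value + 1), which understates fold changes of low genes, keeping genes whose mean over the compared libraries reached 5; sex and, if estimable, library batch were terms. P-values were adjusted by Benjamini-Hochberg over all genes tested, and a call needed an adjusted p under 0.05 together with a log2 fold change beyond 0.58 in either direction. Fold changes are NDMA over saline; SE is limma's moderated standard error. The genotype difference was fitted with edgeR 4.0.16 on recovered reads. DESeq2 1.42.0, edgeR, other pseudocounts (0.5 and 5) and filters, 1 total per library, sexes, batches and single libraries were alternatives. On simulated data of the WT day 2 layout (8563 genes) limma recovered 55% of changes of log2 size 1 and 93% of size 2. Transcript lengths were GENCODE basic models, added after the data were seen, and promoter windows were RefSeq's on GRCm38.p6.

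The members, gene lists and tests were chosen with earlier results of these data known. Named genes were 20 core subunits, the tissue isoforms and their liver partners, the 5 largest and 5 smallest called changes and the extremes of each comparison, genes called in the same direction at 3 or more times, and the 5 leading genotype differences; others were named after their values were seen. R 4.3.3 and Python 3.11.15 were used.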

Additional observations from a re-analysis of the deposited data

Results flagged for a closer look

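Of 104 sets of 4 to 10 libraries checked for a value far from the others, 21 held one, where chance gives about 1 in 20 for a single set. The same libraries recur in sets of all members, of complexes and of single genes, so the 21 are not separate cases. In WT saline libraries at day 2, the library against its label, D215004, gave the highest mean of all members (9.58), of complex I (9.28) and of complex IV (9.53), and the highest Cox6b2 (124) and Cox7a1 (38.6) of 8. In WT saline libraries at day 5, D215012 gave the highest complex IV mean (9.64) and Cox6b2 (117) of 7.

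In WT NDMA mice the low-read libraries gave the lowest values: the complex II and V means stood apart at day 2 (8.87 and 9.11) and day 5 (8.86 and 9.08), as did the lowest complex II mean at week 10 (9.08). Among WT NDMA libraries at day 2 a Cox7a1 value of 121 was far above the other 7, and among WT saline libraries at month 10 a complex II mean of 9.16 was far above the other 9.

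The Mgmt-/- saline library D209001 at week 10 gave the lowest mean of all members (8.32), of complex I (8.03), complex III (9.22), complex IV (7.85) and complex V (8.74) of 8. At the same time single libraries had the highest Cox6b2 values, 14.1 in saline and 30.7 after NDMA.

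By the joint edgeR fit the response at day 2 was lower in Mgmt-/- than in WT mice for Cox5b (-1.04), Uqcr11 (-0.86), Atp5d (-0.74), Ndufa2 (-0.73), Ndufa6 (-0.70), Ndufb2 (-0.67), Atp5j2 (-0.66) and Uqcrq (-0.64), as differences of log2 fold changes. The response differed between times for 24 members in WT and 2 in Mgmt-/- mice by limma, where some times shared no library batch.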

How the results depend on the processing

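The member counts called in WT mice at days 2 and 5 depended most on the libraries and terms used; the cause was not tested beyond what the settings themselves change. Settings that leave out libraries against their label, with kidney transcripts or of few reads were chosen after seeing the data. The week 10 setting without D209001 was singled out by the level of the members themselves. No result past its threshold reversed its direction in any setting run. No single gene named as called changed sign in its 1521 repeats, of which 374 missed the threshold. Of 300 repeats of the group medians, which lie close to 0 in most comparisons, 257 kept their sign and 43 changed it, 2 of them by more than the spread (Mgmt-/- day 2 to 0.14 at 1 total, and Mgmt-/- day 5 to 0.24 at 1 total without the kidney libraries). WT day 1 (1 member): 3, 0 and 4 within batches 191212Eng, 200803Eng and 210901Eng, 1 in batch 200803Eng without the libraries against their label, and 7 by adjusted p alone. WT day 2 (23): 14 with total reads as a term, 14 by edgeR, 10 without columns whose reads were not recovered, 37 in males and 0 in females. Without the library against its label the day 2 count was 36 when scaled to 1 total, 37 in males and 1 in females, and with the low-read library also out it was 37 in males and 35 in females. Leaving out 1 library gave 19 to 28, and 24 to 33 with the library against its label out. WT day 5 (15): 8 with no filter, 3 with no covariates, 0 with total reads as a term, 10 by edgeR (7 up and 3 down), 47 in males, 0 in females. Without the library against its label it was 24, also when scaled to 1 total (25 without the 50 most abundant genes in that total), 47 in males and 1 in females, and with the low-read library also out 36, 47 and 1. Leaving out 1 library gave 2 to 24, and 14 to 36 with the library against its label out. Mgmt-/- day 1 (2): 1 in males, 5 in females, 5 in batch 191212Eng and 16 by adjusted p alone. Mgmt-/- day 2 (2): 6 when scaled to 1 total, 4 by DESeq2, 4 in males, 14 by adjusted p alone, and 2 to 6 without 1 library, with 6 without saline D389023. Mgmt-/- day 5 (2): 1 when scaled to 1 total, 0 in males, 0 in females, 5 by adjusted p alone, 2 to 3 without 1 library, and without the kidney libraries 4 in males and 1 in females. Mgmt-/- week 10 (0): 2 in females, and 0 to 6 without 1 library, with 1 without saline D209004 and 6 without D209001. Genotype differences: at day 1 (0) 1 with library totals and 1 without libraries against their label; at day 2 (8) 4 with sex alone as a term, 3 with library totals and 35 without the library against its label and the low-read one; at day 5 (0) 1 without the kidney libraries, 1 without those and the library against its label, and 5 with the low-read library also out; at week 10 (0) 1 without D209001. Differences between times: 40 in WT without libraries against their label at 1 total, and 39 without those and low-read libraries (24 before); in Mgmt-/- mice 4 at 1 total and 8 at 1 total without the kidney libraries (2 before). No paired analysis was possible because the groups share no replicate numbers. Libraries under 300000 reads limit low genes most, and 4 libraries whose reads were not recovered entered limma alone.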
